A study of Mus musculus with 9 samples.

Results

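The cytochrome P450 genes of families 1 to 4 were described in mouse lung. Members were all rows of the gene count table whose symbol begins with Cyp1, Cyp2, Cyp3 or Cyp4 and a letter, and 81 of 21930 rows matched. A member is reported where it had 10 or more counts in at least 3 of the 9 libraries, which held for 31 members. The groups were LPS plus RSBD, LPS and control, with 3 libraries each, and the labels describe all mice as male C57BL/6 animals of 6 to 8 weeks. Mice of the LPS plus RSBD group received lipopolysaccharide (LPS, a bacterial outer membrane component that activates innate immunity) into the trachea at 2 mg/kg and then daily gavage of RSBD, a decoction made from the Chinese herbal formula Renshen Baidu Powder. Mice of the LPS group received the same LPS and vehicle by gavage, and control mice received saline into the trachea in place of LPS. All mice were anesthetized with tribromoethanol for the instillation, and lungs were collected on day 5 after it. Gavage is described for all 3 groups, control included, as 5 days starting 24 h after the instillation. With collection on day 5, the number of doses received is unclear. Each library is labelled as a separate biological replicate of whole lung.

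Cytochrome P450 enzymes are heme proteins of the endoplasmic reticulum that insert an oxygen atom into their substrates with electrons from P450 reductase. Families 1 to 3 are known for the oxidation of drugs, toxicants and hormones, and family 4 for hydroxylating the ends of fatty acid and eicosanoid chains. Liver is the richest source of most of them, while the mouse lung is known for a set of its own, concentrated in club cells, the secretory cells of the small airways, where these enzymes turn inhaled compounds such as naphthalene into reactive products.

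Libraries held 26959662 to 36113905 counts over protein-coding genes. All 10 genes of a lung tissue list passed the filter on low counts, among them Sftpc, Ager, Scgb1a1 and Cldn5. Of 12 hepatocyte genes, 5 passed it, Fgb and Cyp7a1 had no read, and albumin (Alb) had 0 to 37 reads a library. The highest of that list were Cyp8b1 with 46 to 104 reads a library, Apob with 4 to 108 and Serpina3k with 0 to 66. Control libraries stood apart on chromosome Y, whose genes together held 10918, 9577 and 7511 reads in LPS plus RSBD libraries 1 to 3, 8839, 8794 and 8278 reads in LPS libraries 1 to 3, and 6, 7 and 9 reads in control libraries 1 to 3. The X-linked genes Kdm5c, Kdm6a, Ddx3x and Eif2s3x, each with a related copy on chromosome Y, were all lower in LPS than in control, by edgeR log2 fold changes of -0.87, -0.75, -0.51 and -0.39 (adjusted p = 0.00289, 0.00198, 0.00834 and 0.0132), and all 4 were called lower in LPS plus RSBD than in control too. All animals are labelled male. The X and Y genes separate the controls from both other groups as sex would, so for each difference from control below, LPS and a difference in sex cannot be told apart, and no control library is free of it. LPS plus RSBD against LPS does not use the controls' levels. In whole lung, fewer cells of a type and less RNA per cell cannot be told apart.

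P450 genes arose by repeated duplication, and reads from near-identical copies can be assigned to either. By coding sequence (GENCODE M21, GRCm38), Cyp2a5 and Cyp2a4 were 98.4% identical and differed at 23 of 1482 bases, and Cyp4a12b and Cyp4a12a were 98.5% identical and differed at 23 of 1524. Of all stretches of 150 bases, the length of a read, 67 of 1333 in the first pair and 439 of 1375 in the second held no difference. These pairs are shown because 2 of the members with the widest differences between groups belong to them. For each pair the stretch shown is the one, inside an exon of both genes, with the most differing bases. It is therefore not typical of the pair and overstates how far the copies differ. The stretches are coding bases 494 to 643 of Cyp2a5 (chr7:26837091-26837240, plus strand) and Cyp2a4 (chr7:26308928-26309077, plus strand), with the 5 differing bases in capitals, and coding bases 630 to 779 of Cyp4a12b (chr4:115432881-115433030, plus strand) and Cyp4a12a (chr4:115326628-115326777, plus strand), with the 8 differing bases in capitals.
Cyp2a5: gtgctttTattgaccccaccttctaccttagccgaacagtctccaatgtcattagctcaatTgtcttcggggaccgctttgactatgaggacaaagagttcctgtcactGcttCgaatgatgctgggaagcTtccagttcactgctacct
Cyp2a4: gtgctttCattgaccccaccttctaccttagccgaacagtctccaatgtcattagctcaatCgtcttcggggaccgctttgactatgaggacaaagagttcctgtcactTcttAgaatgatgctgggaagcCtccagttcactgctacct
Cyp4a12b: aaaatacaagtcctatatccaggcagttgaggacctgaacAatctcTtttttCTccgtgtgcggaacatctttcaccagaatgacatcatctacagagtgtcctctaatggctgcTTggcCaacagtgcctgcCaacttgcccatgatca
Cyp4a12a: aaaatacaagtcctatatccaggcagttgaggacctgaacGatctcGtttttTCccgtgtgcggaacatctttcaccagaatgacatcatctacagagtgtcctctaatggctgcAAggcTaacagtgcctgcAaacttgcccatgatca
Other close pairs were Cyp4a32 with Cyp4a10 (97.2%) and Cyp4f16 with Cyp4f37 (95.7%). The abundant members were further from their nearest relatives, with 88.7% for Cyp2b10 and Cyp2b13, 65.0% for Cyp4b1 and Cyp4a12a, and 63.6% for Cyp2f2 and Cyp2a4. The counts therefore separate Cyp2f2, Cyp4b1 and Cyp2b10 more safely than Cyp2a5 from Cyp2a4 or Cyp4a12b from Cyp4a12a.

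The lung expressed a small part of the family. Of the 49 rows of family 2, 17 were reported, of the 20 of family 4, 11, of the 3 of family 1, 2, and of the 9 of family 3, 1. Subfamilies that are large and abundant in liver gave few reported members, with 1 of 15 Cyp2c genes, 1 of 8 Cyp2d genes and 1 of 9 Cyp3a genes reported. Subfamily Cyp4f was the exception among the large ones, with 7 of 9. Of the 50 members left out, 33 had no read in any library and the highest had 55 reads over all libraries. Those left out were Cyp1a2, Cyp2a12, Cyp2a22, Cyp2b13, Cyp2b23, 14 of the Cyp2c genes, 7 of the Cyp2d genes, Cyp2j5, Cyp2j7, Cyp2j8, Cyp2j11, Cyp2j12, Cyp2j13, Cyp2w1, 8 of the Cyp3a genes, Cyp4a10, Cyp4a12a, Cyp4a14, Cyp4a29, Cyp4a30b, Cyp4a31, Cyp4f14, Cyp4f40 and Cyp4x1. Just under the limit were Cyp4a12a, with 55 reads in all and 10 or more in 2 libraries, and Cyp3a57, with 52 reads and 2 libraries. Just over it were Cyp2c23 with 89 reads, Cyp4f37 with 98 and Cyp2b9 with 108. The minimum was met in all 9 libraries by 26 of the reported members and in fewer by 5, Cyp2a4, Cyp2b9, Cyp2c23, Cyp4a12b and Cyp4f37. Cyp4f37 met it only in libraries of LPS-treated mice, and Cyp4a12b only in LPS plus RSBD and control libraries. Each thus passed only through groups where it was higher, so the filter favoured its difference between groups. All 31 reported members, and none of the other 50, entered the test.

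The genes clustered in the genome as well. Of the reported members, 11 lie on chromosome 7 and 7 on chromosome 17, and 5 lie on chromosome 4. A stretch of 1356 kb on chromosome 7 (GRCm38, chr7:25802475-27158668) holds 9 of them, Cyp2a4, Cyp2a5, Cyp2b9, Cyp2b10, Cyp2b19, Cyp2f2, Cyp2g1, Cyp2s1 and Cyp2t4. Their levels ran over nearly the whole range of the family, as neighbours in the stretch included both Cyp2f2 and Cyp2b9.

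On the TPM scale, which corrects counts for gene length and library size so that genes can be compared, 1 gene outweighed all others. Cyp2f2, the club cell enzyme that activates naphthalene, had 2609, 1981 and 3023 TPM in LPS plus RSBD libraries 1 to 3, 1887, 1940.3 and 2189 TPM in LPS libraries and 2028, 2254 and 1942 TPM in control libraries. On average over the 9 libraries it stood at 2206 TPM, followed by Cyp4b1, which activates the lung toxin 4-ipomeanol, at 653 TPM. Next came Cyp2b10 at 289, Cyp2a5 at 117 and Cyp2s1 at 114 TPM. These 5 were the members over 100 TPM, and they made up 89.7% to 94.1% of the summed TPM of the family in each library. A further 6 members averaged 10 to 100 TPM, 14 averaged 1 to 10 TPM and 6 were under 1 TPM, down to Cyp4f37 at 0.221 TPM. The 50 members left out added little, since the reported ones held 99.97% to 99.99% of the family's TPM in every library.

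**Figure D1:**
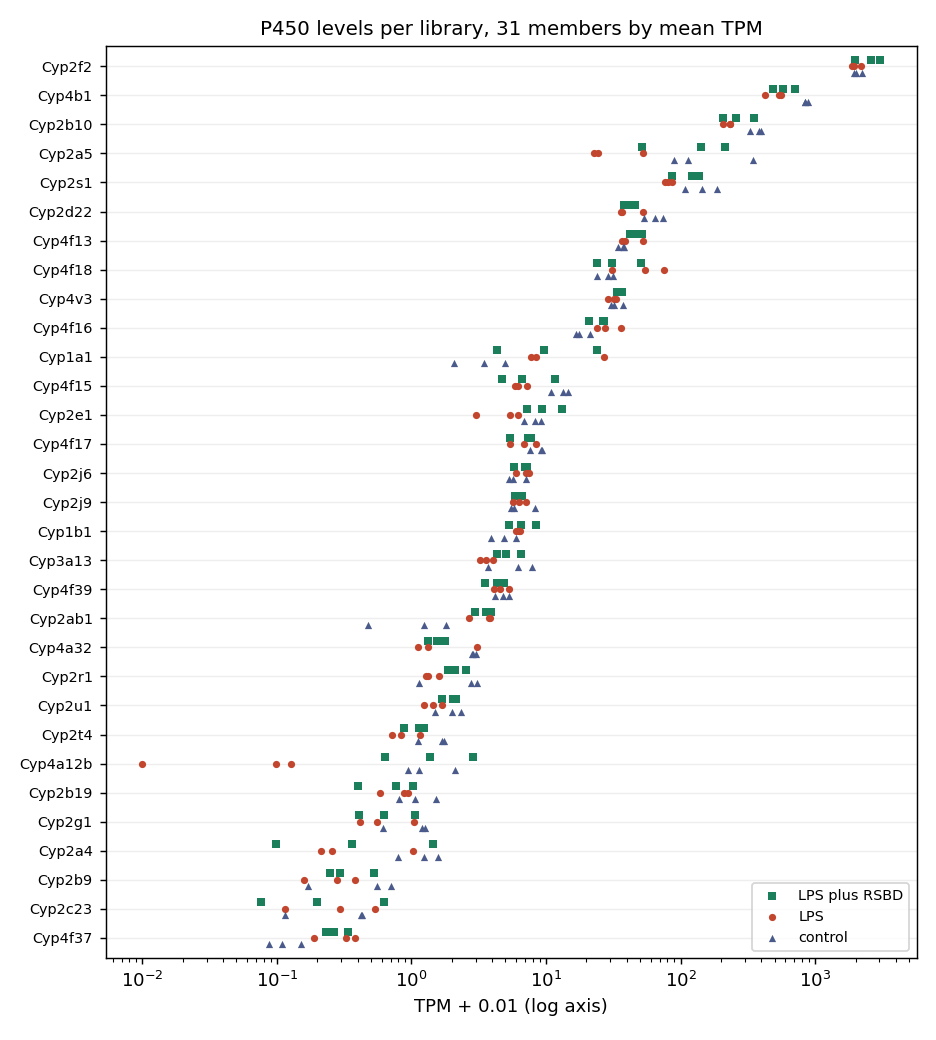
TPM plus 0.01 of each of the 31 reported members in each of the 9 libraries, on a log axis, ordered by mean TPM. Green squares are LPS plus RSBD, red circles LPS and blue triangles control libraries. Cyp2f2 lies at 1887 to 3023 TPM, and the LPS libraries of Cyp4a12b lie far to the left of its other libraries, 1 of them at 0.

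Summed over all 81 members, the family reached 4076, 3044 and 4637 TPM in LPS plus RSBD libraries 1 to 3, 3079.8, 2987 and 3303 TPM in LPS libraries, and 3752, 3925 and 3992 TPM in control libraries. All 3 LPS libraries lay below all 3 controls, while LPS plus RSBD libraries lay on both sides of the controls, with library 2 of that group inside the LPS range. The shape of the sum differed too. Without Cyp2f2 the members summed to 1467, 1063 and 1615 TPM in LPS plus RSBD libraries, 1193, 1047 and 1114 TPM in LPS libraries, and 1724, 1671 and 2051 TPM in control libraries. Here all 6 libraries of LPS-treated mice lay below the controls. Cyp2f2 accordingly took 64.004%, 65.1% and 65.2% of the family's TPM in LPS plus RSBD libraries, 61.3%, 64.9% and 66.3% in LPS libraries, and 54.04%, 57.4% and 48.6% in control libraries. A share can move through its denominator alone, and no test was run on these sums.

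**Figure D2:**
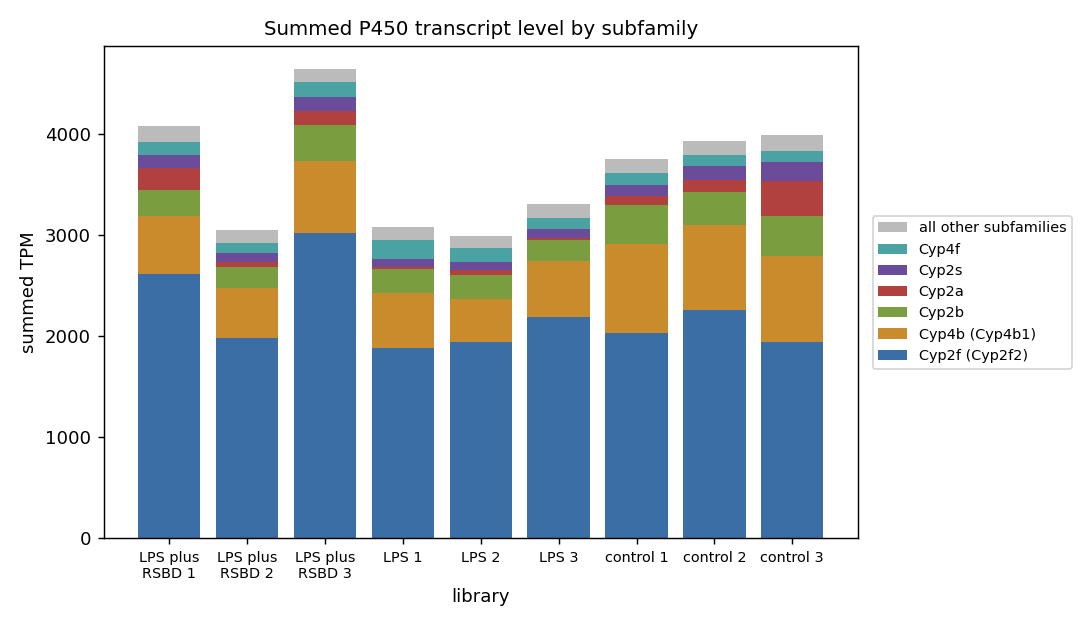
Summed TPM of the P450 families 1 to 4 in each library, stacked by subfamily, with libraries of LPS plus RSBD at the left, LPS in the middle and control at the right. The blue Cyp2f2 segment is 1887 to 2189 TPM in LPS and 1942 to 2254 TPM in control libraries, while the Cyp4b1, Cyp2b and Cyp2a segments are shorter in LPS than in control libraries.

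In LPS against control, 6 of the 31 members fell and 2 rose. The controls also differ on chromosomes X and Y, so these differences cannot be assigned to LPS. Those that fell were Cyp4b1, Cyp2b10, Cyp2a5, Cyp2s1, Cyp2d22 and Cyp4a12b, which include 4 of the 5 most abundant members, and those that rose were Cyp2ab1 and Cyp4f16. A call here is an adjusted p under 0.05 in edgeR's quasi-likelihood test with adjustment over all 15636 genes tested. As shares of the members, 19.4% fell and 6.45% rose, beside 8.63% lower and 8.79% higher among all genes tested. The members' median log2 fold change was -0.40, beside -0.01 for all genes. The other 23 members, Cyp2f2 among them, were not called. Groups that did not overlap in CPM (counts over TMM-scaled library size, for comparing 1 gene between libraries) were found for 8 members lower in LPS and 6 higher, beside 19.5% and 18.6% of all genes. Cyp4a12b is among the lower and Cyp4f37 among the higher, and each passed the filter only through the groups where it was higher. At an unadjusted p under 0.05 edgeR had 14 members, or 45.2%, beside 34.5% of all genes. DESeq2 called 7 lower and 4 higher, beside 11.7% and 12.9% of all genes. The count of lower members leaned on single libraries, with 0 without LPS library 2, 1 without control library 3, 2 without control library 2 or LPS library 3, and 3 without LPS plus RSBD library 1. The count of higher members was 1 without LPS library 2.

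With RSBD given after LPS, edgeR called 0 of the 31 members against LPS alone, as it called 0 of all 15636 genes (percent called 0). At an unadjusted p under 0.05 there were 4 members, Cyp2a5, Cyp2e1, Cyp2s1 and Cyp4a12b, all with higher fitted levels in LPS plus RSBD, or 12.9% beside 9.42% of all genes. DESeq2 called 2 members higher, Cyp4a12b and Cyp2e1, and 0 lower, beside 0.614% and 0.403% of all genes. Groups did not overlap for 5 members higher in LPS plus RSBD, Cyp2e1, Cyp2r1, Cyp2u1, Cyp3a13 and Cyp4a12b, and for 0 lower, beside 7.18% and 5.46% of all genes. Of these, Cyp4a12b passed the filter only through libraries outside the LPS group. The median log2 fold change of the members was 0.15, beside 0.01 for all genes.

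Relative to control, LPS plus RSBD had 1 member called higher, Cyp2ab1, and 0 called lower by edgeR, beside 1.89% and 1.80% of all genes. At an unadjusted p under 0.05 there were 9 members, or 29.0% beside 22.7%. DESeq2 called 3 higher, Cyp2ab1, Cyp4f13 and Cyp4f16, and 2 lower, Cyp2d22 and Cyp4b1, beside 5.76% and 5.48%. Groups did not overlap in either direction for 7 members, beside 30.4% of all genes. The median log2 fold change was -0.05, beside 0.01 for all genes. The comparisons share groups, so their fold changes are not independent of each other.

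**Figure D3:**
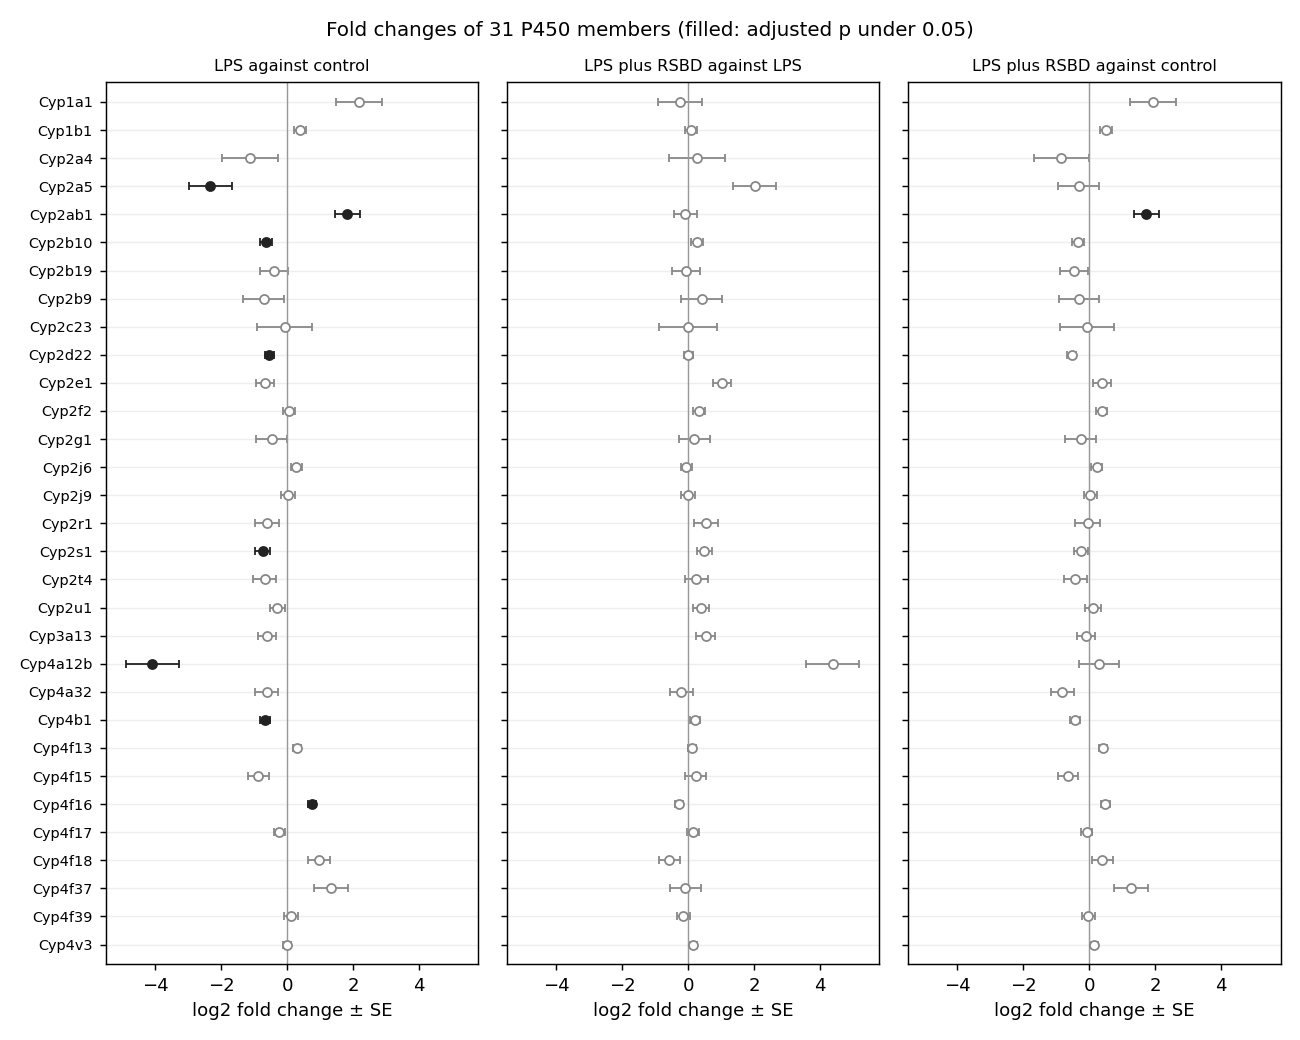
Log2 fold change ± SE of the 31 members in LPS against control (left), LPS plus RSBD against LPS (middle) and LPS plus RSBD against control (right), from edgeR on 9 libraries. Filled points have an adjusted p under 0.05, and these are 8 members at the left, 0 in the middle and 1 at the right.

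Cyp2a5, the mouse coumarin 7-hydroxylase, fell the furthest of the abundant members in LPS against control. It had 248, 60.5 and 168 CPM in LPS plus RSBD libraries 1 to 3, 23.7, 63.5 and 30.3 CPM in LPS libraries, and 102, 122 and 369 CPM in control libraries. LPS and control did not overlap, while LPS plus RSBD library 2 lay below LPS library 2. Means were 159 ± 93.99 CPM in LPS plus RSBD, 39.1 ± 21.4 CPM in LPS and 198 ± 148 CPM in control (SD, n = 3 each). LPS against control gave a log2 fold change of -2.33 ± 0.65 (SE, edgeR adjusted p = 0.0407). The comparison of LPS plus RSBD with LPS gave 2.02 ± 0.65 (adjusted p = 0.411), and LPS plus RSBD against control -0.32 ± 0.62 (adjusted p = 0.799), so neither was called. The call of the fall was lost in 11 of 18 alternatives, with a log2 fold change of -1.51 and an adjusted p of 0.15 without control library 3, and an adjusted p of 0.0596 without control library 2, 0.127, 0.0588 and 0.162 without LPS libraries 1, 2 and 3, and 0.0605 and 0.0926 without LPS plus RSBD libraries 1 and 3. Cyp2a4, its near copy, had 3 to 53 reads a library beside 637 to 10360 for Cyp2a5 and was not called in any comparison.

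Neighbours of Cyp2a5 on chromosome 7 differed less in size. Cyp2b10, the best known target of the constitutive androstane receptor in mouse liver, had 284, 233 and 401 CPM in LPS plus RSBD libraries, 233, 273 and 248 CPM in LPS libraries, and 421, 336 and 409 CPM in control libraries. Its log2 fold change in LPS against control was -0.63 ± 0.18 (SE, edgeR adjusted p = 0.0405), with no overlap between those groups. LPS plus RSBD spanned both ranges, with 0.28 ± 0.18 against LPS (adjusted p = 0.654) and -0.35 ± 0.18 against control (adjusted p = 0.283). Its call in LPS against control was lost without any 1 of the 3 controls (adjusted p = 0.0972, 0.062 and 0.113 for libraries 1 to 3), any 1 of the LPS libraries (0.0969, 0.0913 and 0.104) or LPS plus RSBD library 1 (0.0533).

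Cyp2s1, an airway epithelial P450 whose human counterpart metabolizes retinoic acid, had 194, 139.8 and 226 CPM in LPS plus RSBD libraries, 111, 137 and 150.1 CPM in LPS libraries, and 171, 216 and 281 CPM in control libraries. Its fall in LPS against control was -0.74 ± 0.22 on the log2 scale (SE, edgeR adjusted p = 0.0447), and all LPS libraries lay below all controls. With RSBD the value against LPS was 0.49 ± 0.22 (adjusted p = 0.526), with LPS plus RSBD library 2 inside the LPS range, and LPS plus RSBD against control gave -0.25 ± 0.22 (adjusted p = 0.522). The call was lost without control library 2 or 3 (adjusted p = 0.0975 and 0.136), without LPS library 1, 2 or 3 (0.111, 0.111 and 0.0775) and without LPS plus RSBD library 1 (0.0626).

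Cyp2f2, unlike these neighbours, was not called in any comparison, though the difference between the genes was not tested. It had 2780.4, 2151 and 3321 CPM in LPS plus RSBD libraries, 1834, 2206 and 2544 CPM in LPS libraries, and 2147, 2241 and 1944 CPM in control libraries. Every pair of groups overlapped. The log2 fold changes were 0.06 ± 0.17 in LPS against control (adjusted p = 0.847), 0.33 ± 0.17 in LPS plus RSBD against LPS (adjusted p = 0.598) and 0.38 ± 0.17 in LPS plus RSBD against control (adjusted p = 0.2201).

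Among the remaining members of the chromosome 7 stretch, none was called. Cyp2g1, known from the olfactory mucosa, had 0.685, 0.452 and 1.1996 CPM in LPS plus RSBD libraries, 0.892, 0.4898 and 0.654 CPM in LPS libraries, and 1.06, 0.637 and 1.103 CPM in control libraries. Cyp2t4 had 1.15, 0.839 and 1.09 CPM in LPS plus RSBD libraries, 1.003, 0.718 and 0.872 CPM in LPS libraries, and 1.58, 0.987 and 1.57 CPM in control libraries. The groups overlapped for both genes, and the Cyp2t4 model overlaps Egln2 on the opposite strand. Their log2 fold changes in LPS against control were -0.46 ± 0.47 for Cyp2g1 (edgeR adjusted p = 0.528) and -0.67 ± 0.35 for Cyp2t4 (adjusted p = 0.204). Against LPS, LPS plus RSBD stood at 0.19 ± 0.48 and 0.25 ± 0.35 (adjusted p = 0.937 and 0.877), and against control at -0.26 ± 0.47 and -0.42 ± 0.35 (adjusted p = 0.776 and 0.501). Cyp2b19 and Cyp2b9 were at most 1.9001 CPM in any library. Like Cyp2a4, Cyp2b9 is known as female-predominant in mouse liver. Cyp2b9 had 9 to 21 reads in LPS plus RSBD, 4 to 13 in LPS and 6 to 20 in control libraries, and these ranges overlapped. The part of sex in these few reads was not tested.

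**Figure D4:**
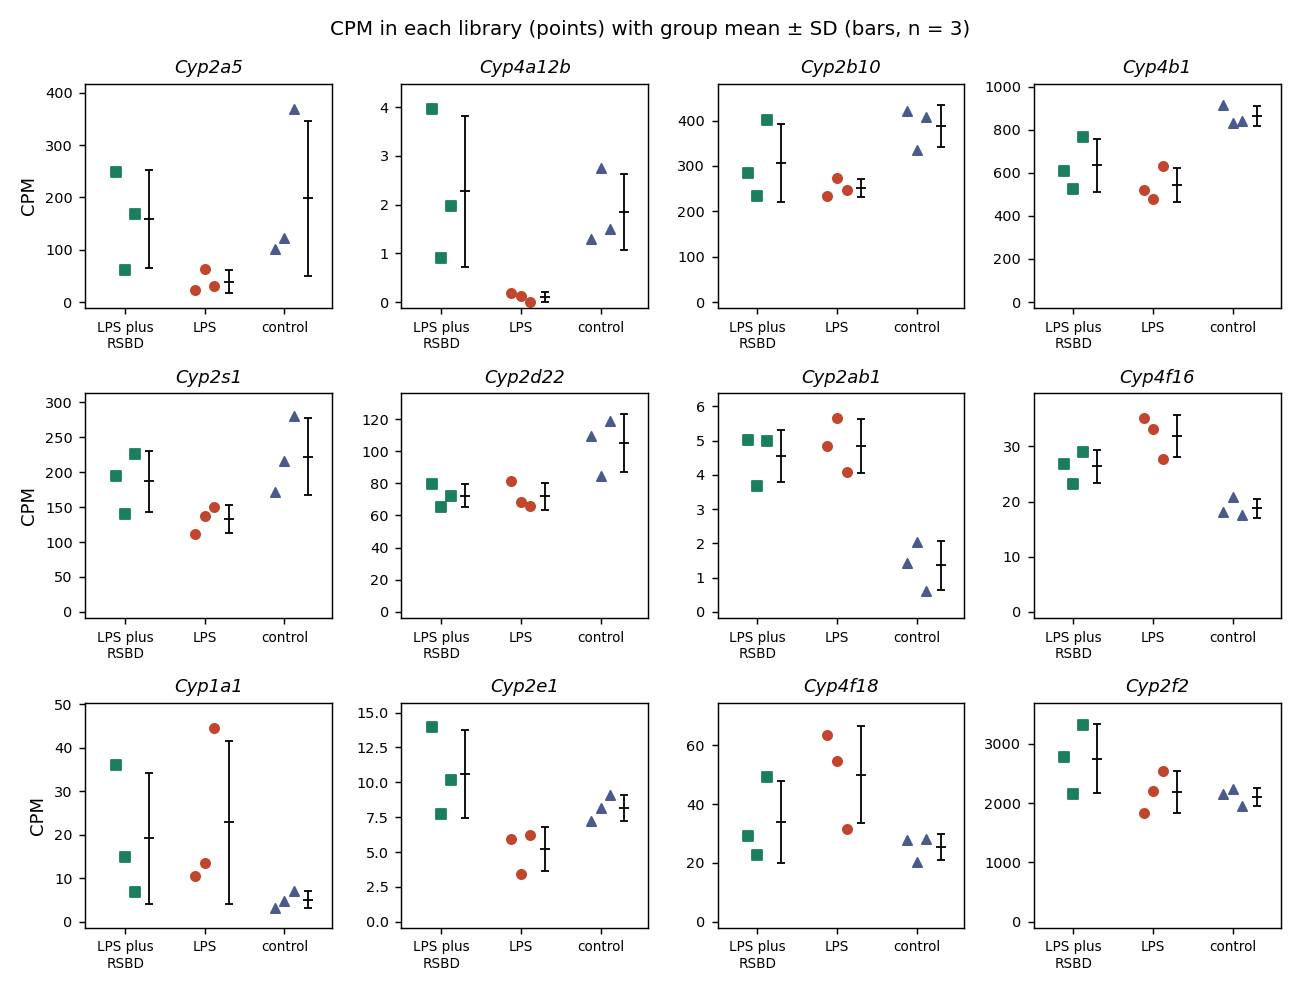
CPM of 12 members in each library, with LPS plus RSBD at the left, LPS in the middle and control at the right of each panel, and group means ± SD (n = 3) as bars. The top 2 rows are the 8 members called in LPS against control, and the bottom row shows Cyp1a1, Cyp2e1, Cyp4f18 and Cyp2f2, which edgeR did not call. LPS points lie under the control points for Cyp2a5, Cyp4a12b, Cyp2b10, Cyp4b1, Cyp2s1 and Cyp2d22, and over them for Cyp2ab1 and Cyp4f16.

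Cyp4b1, the second most abundant member, had 609, 526 and 767 CPM in LPS plus RSBD libraries, 522, 480.4 and 632 CPM in LPS libraries, and 916, 833 and 839 CPM in control libraries. All 6 libraries of LPS-treated mice lay below all 3 controls, and the LPS plus RSBD and LPS ranges overlapped. Means were 634 ± 123 CPM in LPS plus RSBD, 545 ± 78.5 CPM in LPS and 863 ± 46.1 CPM in control (SD, n = 3 each). The fall in LPS against control was -0.66 ± 0.15 on the log2 scale (SE, edgeR adjusted p = 0.0181). In LPS plus RSBD against control the log2 fold change was -0.44 ± 0.15, which edgeR did not call (adjusted p = 0.116) and DESeq2 did (adjusted p = 0.0317), and against LPS it was 0.22 ± 0.15 (adjusted p = 0.686). The call in LPS against control was lost without control library 2 or 3 (adjusted p = 0.0526 and 0.0504) or LPS library 2 (0.0766).

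Cyp4a12b, of a subfamily that hydroxylates arachidonic acid to 20-HETE in mouse kidney, was nearly absent from LPS lungs. It had 144, 28 and 54 reads in LPS plus RSBD libraries 1 to 3, 5, 4 and 0 reads in LPS libraries, and 37, 86 and 42 reads in control libraries. As CPM these were 3.95, 0.904 and 1.96 in LPS plus RSBD, 0.186, 0.131 and 0 in LPS, and 1.302, 2.74 and 1.49 in control. LPS lay below both other groups without overlap, and those 2 groups overlapped. The gene passed the filter only through those 2 groups. The log2 fold change was -4.08 ± 0.81 in LPS against control (SE, edgeR adjusted p = 0.0123), and its exact size depends on the prior count because 1 library was at 0. Against LPS, the LPS plus RSBD group gave 4.38 ± 0.81, with an unadjusted p of 0.000293 that edgeR's adjustment over all genes took to 0.287, while DESeq2 called it (adjusted p = 5.05e-05). LPS plus RSBD against control gave 0.30 ± 0.61 (adjusted p = 0.806). The call in LPS against control was lost without LPS library 2 (adjusted p = 0.0524) and under limma on log2(TPM + 1) with no filter (log2 difference -1.13, adjusted p = 0.0547). At its highest, 3.95 CPM, the gene was far below the abundant members, and its 98.5% identical copy Cyp4a12a, with 55 reads in all, may have shared reads with it. Genes of the Cyp4a12 group are known as male-predominant in mouse kidney. The part of sex in the Cyp4a12b values of these lungs was not tested.

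Cyp4a32, the other reported gene of that subfamily, had 1.37, 1.19 and 1.599 CPM in LPS plus RSBD libraries, 2.49, 1.24 and 1.09 CPM in LPS libraries, and 2.64, 2.36 and 2.35 CPM in control libraries. LPS plus RSBD lay below control without overlap, and LPS library 1 lay inside the control range. It was not called, with -0.61 ± 0.35 in LPS against control (edgeR adjusted p = 0.246), -0.21 ± 0.35 in LPS plus RSBD against LPS (adjusted p = 0.899) and -0.82 ± 0.35 in LPS plus RSBD against control (adjusted p = 0.20001). The pattern of Cyp4a12b across the groups was thus not seen in Cyp4a32, though the difference between the 2 genes was not tested.

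Cyp2d22, the only Cyp2d gene reported and a mouse relative of the human drug-metabolizing CYP2D6, was lower in both groups that received LPS. It had 79.6, 64.99 and 72.4 CPM in LPS plus RSBD libraries, 81.5, 68.1 and 66.2 CPM in LPS libraries, and 109.6, 84.7 and 119 CPM in control libraries. No library of an LPS-treated mouse reached the lowest control. The log2 fold change was -0.54 ± 0.14 in LPS against control (SE, edgeR adjusted p = 0.0277) and -0.53 ± 0.14 in LPS plus RSBD against control, where edgeR missed the threshold (adjusted p = 0.0602) and DESeq2 passed it (adjusted p = 0.00973). Between LPS plus RSBD and LPS it was 0.01 ± 0.14 (adjusted p = 0.99002). The call in LPS against control was lost without control library 1 or 3 (adjusted p = 0.0689 and 0.095) or LPS library 2 or 3 (0.101 and 0.0932).

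Cyp2ab1 was the one member called higher in both groups relative to control. It had 5.02, 3.68 and 4.98 CPM in LPS plus RSBD libraries, 4.83, 5.65 and 4.07 CPM in LPS libraries, and 1.44, 2.04 and 0.605 CPM in control libraries. All libraries of LPS-treated mice lay above all controls. The log2 fold change was 1.82 ± 0.38 in LPS against control (SE, edgeR adjusted p = 0.0132) and 1.73 ± 0.38 in LPS plus RSBD against control (adjusted p = 0.0372). Between LPS plus RSBD and LPS it was -0.09 ± 0.35 (adjusted p = 0.962). The first call was lost without LPS library 2 (adjusted p = 0.054). The second was lost in 13 of 18 alternatives, among them those without control library 1, 2 or 3 (adjusted p = 0.0857, 0.0539 and 0.0645), LPS library 2 or 3 (0.0572 and 0.0525) or LPS plus RSBD library 1, 2 or 3 (0.082, 0.0828 and 0.0589).

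Subfamily Cyp4f, whose members include leukotriene B4 and fatty acid hydroxylases, had the most reported genes, all but Cyp4f18 on chromosome 17, and did not move as a block. Cyp4f16 was higher in LPS than in control. It had 26.9, 23.2 and 29.04 CPM in LPS plus RSBD libraries, 35.1, 33.1 and 27.7 CPM in LPS libraries, and 18.1, 20.8 and 17.5 CPM in control libraries. All libraries of LPS-treated mice again lay above all controls. The rise in LPS against control was 0.76 ± 0.13 on the log2 scale (SE, edgeR adjusted p = 0.00688), and its call was lost only under limma on log2(TPM + 1) with no filter (adjusted p = 0.0641). LPS plus RSBD against control gave 0.49 ± 0.13 (adjusted p = 0.0645, DESeq2 0.0167) and LPS plus RSBD against LPS -0.28 ± 0.13 (adjusted p = 0.541). Cyp4f13, the most abundant of the subfamily by mean TPM, had 39.8, 31.9 and 37.3 CPM in LPS plus RSBD libraries, 37.7, 30.3 and 31.8 CPM in LPS libraries, and 29.03, 26.8 and 25.1 CPM in control libraries. Both LPS-treated groups lay above control without overlap, at 0.30 ± 0.12 (edgeR adjusted p = 0.102) in LPS and 0.43 ± 0.12 (adjusted p = 0.0723, DESeq2 0.0246) in LPS plus RSBD.

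A pair of Cyp4f genes is named here after their values were seen, because DESeq2 called each in LPS against control. Cyp4f18, which in mouse neutrophils hydroxylates leukotriene B4, had 29.1, 22.7 and 49.4 CPM in LPS plus RSBD libraries, 63.6, 54.7 and 31.7 CPM in LPS libraries, and 27.9, 20.4 and 28.3 CPM in control libraries. The log2 fold change in LPS against control was 0.97 ± 0.32 (edgeR adjusted p = 0.0658, DESeq2 0.00905), and LPS plus RSBD overlapped both groups. Its model overlaps Zfp961 on the opposite strand. The summed TPM of a list of 10 neutrophil genes was higher in every LPS than in every control library and overlapped both in LPS plus RSBD. The sums were 1623 to 8523 TPM in LPS plus RSBD, 6496 to 20931 TPM in LPS and 1895 to 6231 TPM in control libraries. Taken singly, Ngp, Camp, S100a8 and S100a9 separated LPS from control in CPM, and the rest of the list overlapped. In that list Ngp and Camp rose in LPS against control and 8 were not called, the median log2 fold change was 1.39, and its part in Cyp4f18 was not tested. Among all genes 8.79% were called higher in that comparison. Cyp4f15 went the other way, with 7.102, 5.52 and 13.3 CPM in LPS plus RSBD libraries, 5.83, 7.09 and 9.12 CPM in LPS libraries, and 15.4, 11.4 and 13.4 CPM in control libraries. Its log2 fold change in LPS against control was -0.87 ± 0.31 (edgeR adjusted p = 0.0755, DESeq2 0.0278). Cyp4f17, Cyp4f37 and Cyp4f39 were not called by either tool. Cyp4f17 ran from 8.26 to 11.9 CPM and Cyp4f39, which in mouse skin makes very long omega-hydroxy fatty acids, from 5.32 to 8.098 CPM over the 9 libraries. Cyp4f37 had 15, 16 and 11 reads in LPS plus RSBD libraries, 15, 16 and 9 in LPS libraries, and 7, 4 and 5 in control libraries, so that both LPS-treated groups lay above control without overlap. It passed the filter only through these LPS-treated groups. Its log2 fold changes against control were 1.26 ± 0.51 in LPS plus RSBD (edgeR adjusted p = 0.177) and 1.34 ± 0.51 in LPS (adjusted p = 0.0919).

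Family 1 is the classical output of the aryl hydrocarbon receptor (AHR), a ligand-activated factor that pairs with ARNT on DNA elements with the core GCGTG. The 250 bases before the RefSeq start of Cyp1a1 (GRCm38.p6, chr9:57697363-57697612, plus strand) and Cyp1b1 (chr17:79715062-79715311, minus strand) are shown because they hold that core, searched as GCGTG or its complement CACGC and set in capitals.
Cyp1a1: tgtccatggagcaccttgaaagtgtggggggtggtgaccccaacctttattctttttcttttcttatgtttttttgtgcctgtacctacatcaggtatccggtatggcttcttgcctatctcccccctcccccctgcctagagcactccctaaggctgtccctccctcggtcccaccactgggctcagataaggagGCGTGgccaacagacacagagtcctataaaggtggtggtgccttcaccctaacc
Cyp1b1: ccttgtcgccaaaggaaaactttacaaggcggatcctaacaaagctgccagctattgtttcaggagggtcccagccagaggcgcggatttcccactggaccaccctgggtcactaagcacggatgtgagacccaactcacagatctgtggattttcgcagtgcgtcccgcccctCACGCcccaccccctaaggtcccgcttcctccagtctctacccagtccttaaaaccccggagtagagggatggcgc
The core begins 54 bases before the start in Cyp1a1 and 76 bases before it in Cyp1b1. Among all RefSeq mouse promoter windows of this length, 9250 of 32851 (28.2%) hold it, and among the 25 reported members with a window 8 do, so a match is common. Of the members called in LPS against control, 1 of the 4 lower ones with a window held the core (Cyp2b10) and both higher ones did (Cyp2ab1 and Cyp4f16). The deposited Cyp1a1 model starts at position 57687928, before the RefSeq start, so this window lies inside that model.

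Cyp1a1, which activates polycyclic aromatic hydrocarbons, varied widely within both groups that received LPS. It had 35.9, 14.9 and 6.76 CPM in LPS plus RSBD libraries, 10.6, 13.5 and 44.4 CPM in LPS libraries, and 3.13, 4.87 and 7.08 CPM in control libraries. LPS lay above control without overlap, while LPS plus RSBD library 3 lay within the control range. The log2 fold change was 2.18 ± 0.71 in LPS against control (SE, edgeR adjusted p = 0.0621, DESeq2 0.0261). For LPS plus RSBD the log2 fold change was -0.24 ± 0.66 against LPS (adjusted p = 0.943) and 1.94 ± 0.70 against control (adjusted p = 0.146). Cyp1b1, which oxidizes estradiol as well as aromatic hydrocarbons, had 22.6, 18.5 and 15.8 CPM in LPS plus RSBD libraries, 16.3, 17.3 and 19.3 CPM in LPS libraries, and 11.05, 12.8 and 16.5 CPM in control libraries. Control library 3 overlapped the range of both other groups, and its log2 fold changes against control were 0.39 ± 0.18 in LPS (adjusted p = 0.148) and 0.50 ± 0.18 in LPS plus RSBD (adjusted p = 0.138), with 0.10 ± 0.18 between those groups (adjusted p = 0.899).

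Several further members were not called in any comparison by edgeR. Cyp2e1, which oxidizes ethanol and small solvents, had 13.98, 7.71 and 10.2 CPM in LPS plus RSBD libraries, 5.94, 3.396 and 6.25 CPM in LPS libraries, and 7.25, 8.18 and 9.11 CPM in control libraries. LPS lay below both other groups without overlap. LPS plus RSBD against LPS gave 1.04 ± 0.27 (SE, unadjusted p = 0.00338, edgeR adjusted p = 0.382, DESeq2 0.0426), LPS against control -0.66 ± 0.27 (adjusted p = 0.118) and LPS plus RSBD against control 0.38 ± 0.27 (adjusted p = 0.4295). Cyp3a13, the only Cyp3a gene reported and one known from the intestine, had 8.58, 7.49 and 11.3 CPM in LPS plus RSBD libraries, 5.57, 7.38 and 6.03 CPM in LPS libraries, and 13.3, 5.89 and 9.93 CPM in control libraries. LPS plus RSBD lay above LPS by a narrow margin, with 0.53 ± 0.28 (adjusted p = 0.602). Against control its log2 fold changes were -0.09 ± 0.28 in LPS plus RSBD (adjusted p = 0.8798) and -0.61 ± 0.28 in LPS (adjusted p = 0.152).

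Cyp2r1, a vitamin D 25-hydroxylase, had 2.03, 1.81 and 2.58 CPM in LPS plus RSBD libraries, 1.3002, 1.67 and 1.42 CPM in LPS libraries, and 2.67, 2.87 and 1.103 CPM in control libraries. Cyp2u1, whose human counterpart hydroxylates long-chain fatty acids, had 4.77, 4.03 and 4.83 CPM in LPS plus RSBD libraries, 2.6003, 3.85 and 3.85 CPM in LPS libraries, and 5.03, 3.28 and 4.27 CPM in control libraries. For both genes LPS plus RSBD lay above LPS without overlap, at 0.55 ± 0.37 (edgeR adjusted p = 0.686) for Cyp2r1 and 0.40 ± 0.24 (adjusted p = 0.635) for Cyp2u1. Control libraries lay both above and below the LPS plus RSBD libraries of Cyp2r1 and Cyp2u1, and the log2 fold changes in LPS against control were -0.60 ± 0.37 (adjusted p = 0.282) and -0.29 ± 0.24 (adjusted p = 0.437). In LPS plus RSBD against control they were -0.05 ± 0.37 and 0.12 ± 0.24 (adjusted p = 0.948 and 0.808).

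The reported genes of the fatty acid oxidizing subfamilies Cyp2j and Cyp4v were not called in any comparison. Cyp2j6 had 15.03, 14.7 and 12.3 CPM in LPS plus RSBD libraries, 13.3, 13.1 and 16.97 CPM in LPS libraries, and 14.6, 10.9 and 10.3 CPM in control libraries. The log2 fold changes of Cyp2j6 were 0.28 ± 0.17 in LPS against control, -0.05 ± 0.17 in LPS plus RSBD against LPS and 0.23 ± 0.17 in LPS plus RSBD against control (edgeR adjusted p = 0.285, 0.957 and 0.47001). Cyp4v3, the mouse counterpart of the human fatty acid hydroxylase CYP4V2, had 80.3, 75.9 and 75.8 CPM in LPS plus RSBD libraries, 57.5, 76.9 and 76.5 CPM in LPS libraries, and 66.5, 65.4 and 76.9 CPM in control libraries. Its log2 fold changes were 0.01 ± 0.12, 0.14 ± 0.12 and 0.15 ± 0.12 in LPS against control, LPS plus RSBD against LPS and LPS plus RSBD against control (edgeR adjusted p = 0.946, 0.7604 and 0.475), and Gm45753 overlaps its model on the same strand. Cyp2j9 ran from 6.16 to 10.2 CPM. Cyp2c23, an arachidonic acid epoxygenase and the sole Cyp2c gene reported, had 3, 7 and 20 reads in LPS plus RSBD libraries, 8, 4 and 16 in LPS libraries, and 13, 14 and 4 in control libraries, with log2 fold changes within 0.07 of 0 in all 3 comparisons and SEs of 0.82 to 0.88.

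Some markers of the cells that are known to hold these enzymes were called in LPS against control as well. The calls in the marker lists stand beside 8.79% higher and 8.63% lower among all genes in that comparison. In LPS plus RSBD against control these shares were 1.89% and 1.80%. Of 14 club and secretory cell genes 7 fell and 0 rose, with a median log2 fold change of -0.72, and those with the smallest p were Bpifb1 (-3.17 ± 0.47, SE, edgeR adjusted p = 0.00557) and Reg3g (-4.05 ± 0.61, adjusted p = 0.00576). The list summed to 92039.8 to 114418 TPM in LPS plus RSBD libraries, 75658 to 96382 TPM in LPS libraries and 104356 to 142794 TPM in control libraries. The defining secretoglobin Scgb1a1 outweighed the rest of the list, with means of 22761 CPM in LPS and 30335 CPM in control libraries. Aldh1a1, the next highest, had means of 819 and 1097 CPM. The sums therefore say little about the other genes of the list. Scgb1a1 was not called (-0.41 ± 0.21, adjusted p = 0.186), and its CPM overlapped, with 27128 in LPS library 3 and 24849 in control library 3. Scgb3a2 was at -0.04 ± 0.15 (adjusted p = 0.879). Of 12 ciliated cell genes 5 fell, with a median of -0.63 and sums of 807 to 1162 TPM in LPS plus RSBD, 699 to 904 TPM in LPS and 922 to 1459.7 TPM in control libraries. Cyp2a5, Cyp2b10, Cyp2s1 and Cyp4b1 fell in the same comparison while Cyp2f2 did not pass the test, and the part that a loss of club cells or of their RNA had in these results was not tested. In alveolar cells 1 of 10 type 2 genes (Sftpd) and 1 of 8 type 1 genes (Aqp5) fell, close to the share of all genes. Of 10 macrophage and monocyte genes 6 rose, among them Cd68 (1.44 ± 0.18, adjusted p = 0.00304). Of 12 endothelial genes 4 rose, namely Sema3c, Pecam1, Cdh5 and Gpihbp1, and the list summed to 2137 to 2340.3 TPM in LPS plus RSBD, 2203 to 2959.7 TPM in LPS and 2147 to 2257 TPM in control libraries. In LPS plus RSBD against control, Cd68 (0.81 ± 0.18, adjusted p = 0.0393) and Mrc1 (0.62 ± 0.14, adjusted p = 0.0478) rose, and 0 genes of the club, ciliated, alveolar, endothelial and neutrophil lists were called. In LPS plus RSBD against LPS no gene of any marker list was called by edgeR, and the medians were 0.66 for club, 0.42 for ciliated and -1.87 for neutrophil genes.

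The lists of P450 partners that follow stand beside 8.79% higher and 8.63% lower among all genes in LPS against control, and 1.89% and 1.80% in LPS plus RSBD against control. Of 9 electron donors and heme partners, Cyb5r4 rose in LPS against control (0.61 ± 0.12, SE, edgeR adjusted p = 0.00993) and Pgrmc2 fell (-0.40 ± 0.11, adjusted p = 0.0303). Por, the reductase that all of these P450 enzymes need, was not called, with 268, 259 and 297 CPM in LPS plus RSBD libraries, 216, 219 and 275 CPM in LPS libraries, and 289, 269.6 and 319 CPM in control libraries. Of 13 genes of heme synthesis and breakdown 4 rose in LPS against control, namely Blvrb, Fech, Blvra and Hmox2, by 0.28 to 0.59 on the log2 scale, and 0 fell.

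The AHR list held 11 genes, of which Ugt1a7c, a glucuronidating enzyme, rose in LPS against control (1.75 ± 0.33, SE, edgeR adjusted p = 0.01105) and Hsp90aa1, the chaperone of the unbound receptor, fell (-1.18 ± 0.17, adjusted p = 0.00417). Hsp90aa1 also fell in LPS plus RSBD against control (-1.03 ± 0.17, adjusted p = 0.0165). The other 9 genes, with Ahr, Ahrr and Tiparp among them, were not called in either comparison. Of 19 nuclear receptors and lung factors tested, Pparg rose (0.87 ± 0.20, adjusted p = 0.0208) and Vdr (-0.52 ± 0.13, adjusted p = 0.0249) and Foxa1 (-0.81 ± 0.13, adjusted p = 0.00628) fell in LPS against control. The PAR bZIP and clock list, whose factors DBP, TEF and HLF drive P450 genes in mouse liver, had 9 of 17 genes lower in LPS than in control and 0 higher. Among the lower genes were Tef (-0.52 ± 0.14, adjusted p = 0.0343) and Hlf (-0.71 ± 0.19, adjusted p = 0.0337), while Dbp was not called (0.06 ± 0.37, adjusted p = 0.923). The list summed to 766 to 837 TPM in LPS plus RSBD, 432 to 488 TPM in LPS and 565 to 711 TPM in control libraries, and its median in LPS plus RSBD against LPS was 0.63 with 0 genes called. Relative to control, Dbp rose in LPS plus RSBD (1.85 ± 0.38, adjusted p = 0.0367). Arntl fell there (adjusted p = 0.0393), and its CPM ran from 10.1 to 17.6 in LPS plus RSBD and from 22.99 to 33.2 in control libraries. The hour at which lungs were taken is not given in the labels used here, and its part in the P450 values was not tested.

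Of 6 flavin monooxygenases tested, Fmo2 (-0.52 ± 0.16, SE, edgeR adjusted p = 0.0453) and Fmo1 (-0.50 ± 0.13, adjusted p = 0.0284) fell in LPS against control. Of 35 conjugation and aldehyde enzymes 3 rose, namely Ugt1a7c, Mgst1 and Gstm4, and 2 fell, Sult1d1 and Aldh1a1. None of 4 epoxide hydrolases, which take the products of P450 epoxidation further, was called. Of 17 eicosanoid genes tested 5 rose, led by Lta4h (0.40 ± 0.07, adjusted p = 0.00841) and Ltc4s (1.00 ± 0.19, adjusted p = 0.00995) of leukotriene synthesis, and Ptgs1 and Ptges of prostaglandin synthesis fell. Of 21 P450 genes of families 5 and above 11 were tested, of which Cyp11a1 and Tbxas1 rose and Cyp51, Cyp26b1 and Cyp7b1 fell. Relative to control, LPS plus RSBD had higher Gstm4 (0.82 ± 0.17, adjusted p = 0.0331) and lower Ptgs1 (-0.55 ± 0.12, adjusted p = 0.0361), Ptges (-0.89 ± 0.21, adjusted p = 0.0472) and Cyp26b1 (-5.14 ± 0.88, adjusted p = 0.0222). In LPS plus RSBD against LPS edgeR called 0 genes of every one of these lists.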

How the data were processed

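Whole-lung RNA of 9 mice was sequenced as strand-specific, paired-end reads of 150 bases, per the labels' protocols. The tools named, per the submitters' processing notes and with no role stated, are HISAT2 2.2.1, fastp 0.23.2, DESeq2 1.38.3 and StringTie 2.2.0, on genome GRCm38 (mm10). Which of them counted reads is not given in the sources used here. As deposited by the authors, the tables hold estimated counts per gene (expected counts), whole in every cell, and TPM values for the same protein-coding genes. Coordinates of all 81 members equal those of GENCODE M21. The tables abbreviate the names of the RSBD columns, which were taken as the RSBD libraries of the same number.

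The filter was filterByExpr of edgeR 4.0.16 (R 4.3.3) with a minimum count of 10 and a minimum total of 15, which 15636 genes passed. After TMM scaling, all 9 libraries entered 1 quasi-likelihood model with group as the factor, tested 2-sided with Benjamini-Hochberg adjustment over all genes and a threshold of 0.05. Each SE of an edgeR log2 fold change was derived as its absolute value divided by the square root of the quasi-likelihood F statistic. Log2 fold changes in LPS against control had a median SE of 0.15 at 26959662 to 36113905 counts a library. The fit was tested on simulated data. Alternatives were DESeq2 1.42.0, RLE or no scaling, no filter, limma-trend (3.58.1) on log2 TPM with pseudocounts of 1 and 0.1, each pair of groups alone, the replicate number as a block, and each library left out. Levels between genes are TPM, and levels of 1 gene between libraries are TMM-scaled CPM.

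Members called in a comparison and the most abundant member of each subfamily were given in full, other members by range, and genes of other lists only if called, at most 4 a list by adjusted p, while Scgb1a1, Scgb3a2, Por, Tef, Hlf, Dbp, Arntl and any further list gene, and Cyp4f15, Cyp4f18 and Cyp4f37, were named after their values were seen. Members and gene lists were chosen with earlier results of these data known. Coding sequences were aligned with Biopython 1.88, and promoters are those of RefSeq GRCm38.p6, found for 25 of the 31 reported members. The planned description of protein sequences was not run.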

Additional observations from a re-analysis of the deposited data

How the results depend on the processing

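Of 93 results (31 members in 3 comparisons), 9 were called, and under 18 alternatives 0 of the 93 changed direction, not counting 35 uncalled ones whose fold change was smaller than its SE. A further 12 that were not called passed the threshold under some alternative. For LPS against control, members called higher numbered 4 under DESeq2 and 1 under limma on log2(TPM + 1) with no filter, and members called lower numbered 2 under the same limma fit, in place of 2 and 6; leaving out 1 library gave 1 to 3 higher and 0 to 7 lower. For LPS plus RSBD against LPS, DESeq2 called 2 higher, and leaving out 1 library gave 0 higher and 0 lower. For LPS plus RSBD against control, DESeq2 called 3 higher and 2 lower, while 0 were called higher under limma with pseudocount 1, with pseudocount 0.1 or with no filter, with only that pair of groups, or with the replicate block, in place of 1 higher and 0 lower; leaving out 1 library gave 0 to 2 higher and 0 to 3 lower. The causes were not tested. In the share of Cyp2f2, CPM in place of TPM gave 62.4% in place of 64.8% in LPS plus RSBD. Shares by CPM are not given here for LPS and control, so the shift is not shown to be particular to LPS plus RSBD.

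Replicate numbers were not found to pair the libraries. Correlations of same-numbered libraries of different groups ran from -0.215 to 0.122, beside -0.164 to 0.19 for libraries of different numbers. These correlations are not independent of each other. With the replicate block, 2 members were called higher and 4 lower in LPS against control, and 0 in LPS plus RSBD against LPS; Cyp2a5 (adjusted p = 0.12) and Cyp2b10 (0.0513) lost their calls.

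The difference of the controls on chromosomes X and Y touches every comparison with control.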
